A study of Homo sapiens with 32 samples.

Results

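The comparison described here is LPS added to TGFβ1 in THP-1 cells: 8 arrays of cells given LPS at 100 ng/ml together with TGFβ1 at 1 ng/ml for 24 h, against 8 arrays of cells given TGFβ1 alone at 1 ng/ml for 24 h. These 16 arrays were chosen by their titles from the 32 of the series. The other 16 were 8 arrays of cells given LPS alone at 100 ng/ml and 8 of cells given PBS, the control, and they serve below to set the LPS effect in the presence of TGFβ1 beside the LPS effect in its absence. THP-1 is an established human line of monocytic leukaemia cells. It is a single leukaemic line and not a set of blood donors, and all cells of all 4 treatments were kept overnight in medium with little serum before the stimuli were added. RNA was hybridised to Illumina HumanRef-8 arrays, which carry short probes on beads. Whether the 8 arrays of a treatment were made from separate cultures is not in the labels. The p-values therefore describe the scatter among arrays alone, and that scatter may be technical.

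LPS, the lipopolysaccharide of the outer membrane of Gram-negative bacteria, is bound by CD14 and by the TLR4 and MD-2 receptor complex of monocytes. One arm of that receptor signals through MyD88 and IRAK kinases to the NF-kB factors, which drive cytokine and chemokine genes together with their own inhibitors. The other arm signals through TRIF to IRF3 and interferon beta, which is secreted, binds its receptor and turns on the interferon-stimulated genes. TGFβ1 signals through paired receptor kinases to SMAD2, SMAD3 and SMAD4. It is known as a brake on macrophage activation and as an inducer of matrix and maturation genes in monocytes.

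The arrays lay on 4 chips, each with 2 arrays of every treatment, and each treatment kept to fixed places on the chip, which means that place and treatment cannot be told apart. For 4 of the LPS+TGFβ1 arrays the labelled place is the same as that of a TGFβ1 array. Between 12244 and 13288 of 24518 probes were above background on these 16 arrays. The arrays of one treatment did not all lie together. The first component of the residuals, with 42.3% of their variance, set replicate numbers 1, 3 and 4 of all treatments and replicate 7 of LPS and of LPS+TGFβ1 apart from the other arrays. Chip 2 held only arrays of that set and chip 3 none of them, so values within chips are given below for some lists and genes with large gaps between these 2 chips. Other genes may differ between chips as much. The labelled cell type was checked with 17 markers of monocytic cells, of which 15 were above background on all 16 arrays. The exceptions were the scavenger receptor gene CD163, above background on 8 LPS+TGFβ1 arrays and on 0 TGFβ1 arrays, and the granule peroxidase gene MPO, on 0 LPS+TGFβ1 arrays and on 8 TGFβ1 arrays. The summed intensity of these markers ran between 100336 and 130122 on LPS+TGFβ1 arrays, against 69407 and 88201 on TGFβ1 arrays. Of 27 markers of other lineages, 17 were above background on none of the 16 arrays and 2 on all of them, and their summed intensity ran between 1554 and 2358 on LPS+TGFβ1 arrays, against 1200.2 and 1569.8 on TGFβ1 arrays.

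Promoter sequences are shown for 5 genes that rose and whose windows hold the letters of 2 factor families of LPS responses. Each window covers 250 bases before to 50 after the gene's start in RefSeq on GRCh38.p14, written 5′ to 3′ on the gene's strand. Capitals mark matches to the core of the interferon-stimulated response element (GAAA, any 2 bases, GAAA) or to either of 2 forms of the NF-kB site (the shorter GGGA, any base, TTCC, and the longer GGGA, any base, TTTCC), searched on both strands.
IFI44L, chr1:78620198-78620497, plus strand: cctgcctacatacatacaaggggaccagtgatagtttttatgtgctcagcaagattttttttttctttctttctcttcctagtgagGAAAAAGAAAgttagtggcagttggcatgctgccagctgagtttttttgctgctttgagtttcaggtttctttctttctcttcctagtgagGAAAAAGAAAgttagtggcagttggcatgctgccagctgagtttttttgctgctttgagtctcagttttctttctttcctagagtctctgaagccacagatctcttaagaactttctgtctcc
IFI27, chr14:94110486-94110785, plus strand: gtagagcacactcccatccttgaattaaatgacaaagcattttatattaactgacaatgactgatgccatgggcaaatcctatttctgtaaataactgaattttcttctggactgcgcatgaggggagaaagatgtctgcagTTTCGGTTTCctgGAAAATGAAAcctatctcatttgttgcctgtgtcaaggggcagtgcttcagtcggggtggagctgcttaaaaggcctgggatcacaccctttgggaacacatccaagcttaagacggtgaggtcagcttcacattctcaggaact
CXCL10, chr4:76023448-76023747, minus strand: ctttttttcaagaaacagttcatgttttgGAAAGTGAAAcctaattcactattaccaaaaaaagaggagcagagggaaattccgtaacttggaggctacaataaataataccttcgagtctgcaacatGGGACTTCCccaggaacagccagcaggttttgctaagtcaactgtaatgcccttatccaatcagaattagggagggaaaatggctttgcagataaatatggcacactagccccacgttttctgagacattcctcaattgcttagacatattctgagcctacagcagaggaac
IL6, chr7:22726950-22727249, plus strand: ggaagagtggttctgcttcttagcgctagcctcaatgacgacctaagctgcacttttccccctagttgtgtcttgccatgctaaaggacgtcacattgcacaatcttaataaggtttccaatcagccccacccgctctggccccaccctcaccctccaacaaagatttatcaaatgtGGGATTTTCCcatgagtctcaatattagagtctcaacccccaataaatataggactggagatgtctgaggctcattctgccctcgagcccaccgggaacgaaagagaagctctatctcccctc
TNFAIP3, chr6:137867009-137867308, plus strand: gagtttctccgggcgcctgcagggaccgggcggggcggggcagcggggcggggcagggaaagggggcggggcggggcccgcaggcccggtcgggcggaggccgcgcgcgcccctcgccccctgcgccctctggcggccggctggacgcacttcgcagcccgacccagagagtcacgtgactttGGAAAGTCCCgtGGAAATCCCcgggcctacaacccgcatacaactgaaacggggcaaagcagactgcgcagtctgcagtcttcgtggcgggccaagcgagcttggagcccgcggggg
The windows of the antiviral genes IFI44L and IFI27 each held the response element core at 2 places, which start at -164 and -73 in IFI44L and at -108 and -95 in IFI27, counted from the gene's start. RefSeq gives IFI27 another start, from which the same matches lie at -187 and -174. The CXCL10 window held the response element core at -221 and the shorter NF-kB form at -122. In IL6 the longer NF-kB form began at -73, and in TNFAIP3 the longer form began at -67 and the shorter at -55. A match is a description of the letters and not evidence of binding.

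Adding LPS to TGFβ1 changed 33.4% of the genes tested, in both directions, and most of the changes of at least 2-fold were rises. The 12 largest rises included chemokines, cytokine and antiviral genes, and 4 of the 12 largest falls, CEACAM6, MS4A3, CAMP and KIT, were genes of granules and myeloid precursors. Of 18388 probes tested, 5788 were called (31.5%): 2746 were higher (14.9%) and 3042 lower (16.5%) at an adjusted p under 0.05 in limma. At least 2-fold changes were made by 650 probes upwards (3.53%) and by 253 downwards (1.38%). With each gene taken by its brightest probe, 2085 of 13386 genes were higher (15.6%), 2382 were lower (17.8%), 509 rose at least 2-fold (3.8%) and 211 fell at least 2-fold (1.58%). The counts of each list below stand beside these shares, 15.6% of all genes higher and 17.8% lower. The median log2 change of all genes was -0.0081. The LPS+TGFβ1 arrays lay wholly above the TGFβ1 arrays in 1062 genes (7.93%) and wholly below them in 960 (7.17%). Without the arrays that stand apart, an alternative chosen after seeing the data, the probe counts were 3132 higher and 3554 lower, with 777 and 360 at least 2-fold. All log2 changes are of log2(intensity + 50), LPS+TGFβ1 minus TGFβ1, with the standard error of the fit, and they understate the changes of dim genes. Where 3 intensities are given, they are the lowest, the median and the highest of 8 arrays. In RNA from whole cultures, fewer cells of a type and less RNA per cell cannot be told apart.

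Chemokines, the ligands that draw leukocytes, rose nearly as a whole. Of 18 tested, 16 rose, 1 fell and 1 was not called, against 15.6% of all genes higher, and their median log2 change was 2.72. CXCL10, a ligand of CXCR3 on T cells, read 7057, 18378 and 35752 on LPS+TGFβ1 arrays, against 25.3, 33.7 and 47.8 on TGFβ1 arrays. The lowest LPS+TGFβ1 array was far above the highest TGFβ1 array, and the log2 change was 7.59 ± 0.47 (adjusted p = 4.54e-15). CXCL13, the ligand of CXCR5 on B cells and not among those 18, read 4192, 9011 and 13682 on LPS+TGFβ1 arrays, against -2.99, 10.7 and 18.5 on TGFβ1 arrays. It was below background on all 8 TGFβ1 arrays, and the rise was at least 86.9-fold (adjusted p = 4.63e-19). CCL8 and CCL2, monocyte-attracting ligands, had log2 changes of 6.39 ± 0.62 and 5.55 ± 0.40. Over the alternative fits, which include single chips, the CCL8 change ran between 5.24 and 7.82. CCL2 intensities were 17620.0, 27871 and 42183 on LPS+TGFβ1 arrays, against 168, 862 and 1051 on TGFβ1 arrays, with no overlap. CXCL8, the neutrophil-attracting interleukin-8, was bright in both groups, with 32082, 45786 and 49016 on LPS+TGFβ1 arrays, against 6869, 14392 and 20812 on TGFβ1 arrays. The groups did not overlap, and CXCL8 rose 3.27-fold (adjusted p = 1.98e-10). CCL19, a ligand of CCR7, rose 18.5-fold. CCL23, named after its values were seen as the chemokine that fell, had a log2 change of -0.60 ± 0.23 (adjusted p = 0.0411), with overlapping arrays and a call that ended without TGFβ1 replicate 4 (adjusted p = 0.0898), as in 10 of 16 such fits.

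**Figure D1:**
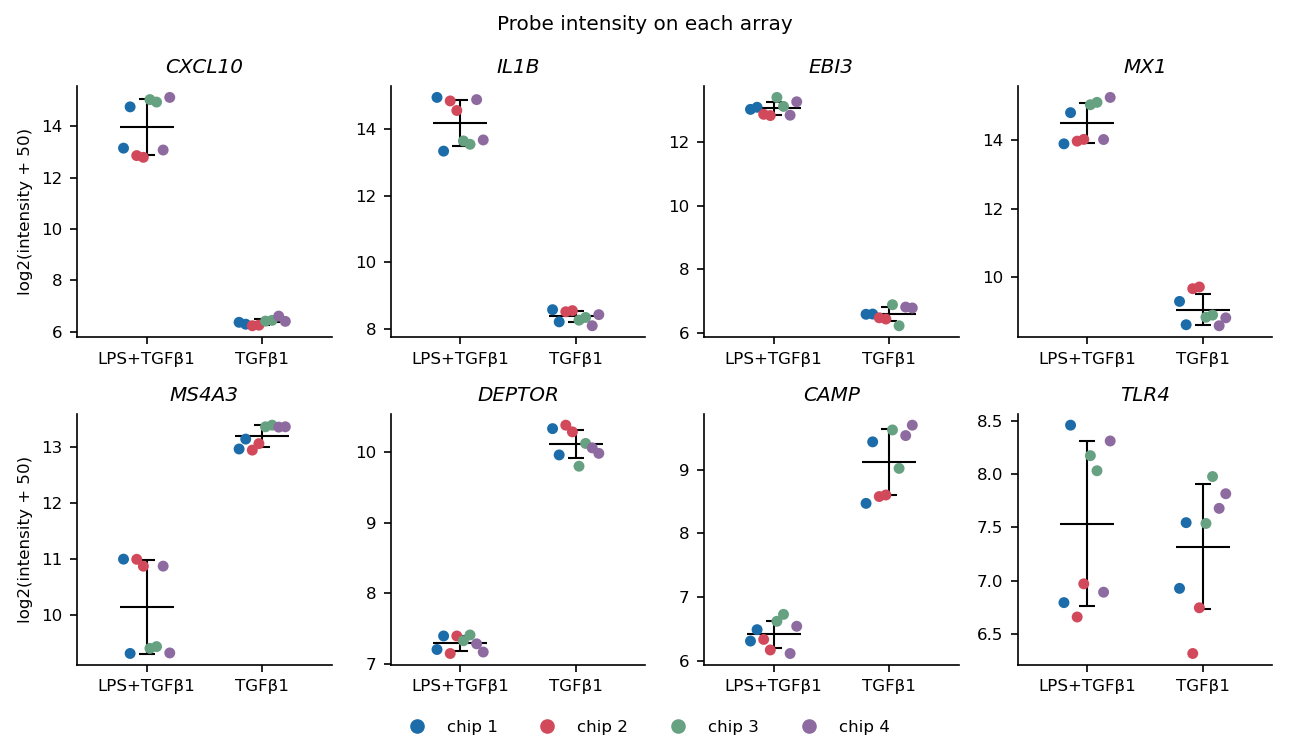
Intensity on the log2(intensity + 50) scale (vertical axis) of 8 genes on each array, LPS+TGFβ1 at left and TGFβ1 at right; points are arrays coloured by chip, wide bars are means and whiskers are SDs over 8 arrays. CXCL10, IL1B, EBI3 and MX1 lay wholly higher and MS4A3, DEPTOR and CAMP wholly lower on LPS+TGFβ1 arrays, whereas the TLR4 arrays of both groups overlapped.

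Of 20 inflammatory cytokine genes tested, 12 rose and 0 fell in limma (0 also by p before adjustment under 0.05), with a median log2 change of 0.64 (1.11 within chip 2 and 0.41 within chip 3). EBI3, a subunit shared by the cytokines IL-27 and IL-35, read 7214, 8451 and 10721 on LPS+TGFβ1 arrays, against 25.3, 46.9 and 68.9 on TGFβ1 arrays. The groups stood far apart, with a log2 change of 6.44 ± 0.16 (adjusted p = 1.92e-25) and within-chip values of 6.24 to 6.69. IL1B, which encodes interleukin-1 beta, read 10287, 18504 and 31560.0 on LPS+TGFβ1 arrays, against 223, 284 and 331 on TGFβ1 arrays. There was no overlap, and the log2 change was 5.81 ± 0.18 (adjusted p = 4.06e-23). IL6 read 406, 600.2 and 897 on LPS+TGFβ1 arrays, against -2.703, 16.4 and 28.5 on TGFβ1 arrays. It was below background on all TGFβ1 arrays and rose at least 7.23-fold (adjusted p = 1.33e-12). TNF read 721, 3297 and 7843 on LPS+TGFβ1 arrays, against 253, 358 and 1665 on TGFβ1 arrays. The TNF arrays overlapped between the groups, the log2 change was 1.98 ± 0.56 (adjusted p = 0.00551), and the call ended with chip 4 left out (adjusted p = 0.0528). Among the 12 largest rises of all genes was also IGFBP3, which binds insulin-like growth factors, with a log2 change of 6.29 ± 0.25. Its highest TGFβ1 array read 225, against 5932 on the lowest LPS+TGFβ1 array.

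Of 26 cytokine and chemokine receptors, 15 rose and 5 fell, against 15.6% of all genes higher and 17.8% lower, with a median log2 change of 0.55. The falls were thus near the share of all genes. The costimulatory receptor TNFRSF9, the lymph-node homing receptor CCR7 and the interleukin-18 receptor chain IL18R1 rose most. TNFRSF9 read 601, 973 and 1419.5 on LPS+TGFβ1 arrays, against 17.3, 25.5 and 42.4 on TGFβ1 arrays. CCR7 and IL18R1 were below background on all TGFβ1 arrays and rose at least 6.99-fold and at least 6.61-fold (adjusted p = 1.24e-08 and 2.55e-18). The 5 that fell, named after their values were seen, were the CCL2 receptor CCR2 (log2 change -1.40), CXCR4 (-0.85), the G-CSF receptor CSF3R (-0.80), IL13RA1 (-0.68) and IL6R (-0.57). With 1 chip left out, the call ended for CXCR4 (adjusted p = 0.0667 without chip 4) and for IL6R (0.0557 without chip 3). CSF1R, the receptor of the macrophage growth factor, read 7343, 9259 and 10511 on LPS+TGFβ1 arrays, against 4887, 5479 and 6062 on TGFβ1 arrays. It rose 1.65-fold, and the groups did not overlap. ACKR2, a decoy receptor that scavenges inflammatory chemokines, was among the 12 largest falls. It read 50.1, 82.6 and 110.2 on LPS+TGFβ1 arrays, against 543, 555 and 613 on TGFβ1 arrays, with no overlap, and was 4.79-fold lower (adjusted p = 4.57e-19).

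Of 20 genes of the TLR4 complex and its adaptors and kinases, 11 rose and 2 fell, with a median log2 change of 0.38. CD14, the LPS co-receptor, read 6411, 9171 and 10433 on LPS+TGFβ1 arrays, against 834, 1097 and 1924 on TGFβ1 arrays. There was no overlap, and CD14 rose 6.98-fold (adjusted p = 1.05e-13). LY96, which encodes MD-2, rose 4.47-fold, and the signalling kinase gene IRAK2 rose 4.67-fold. TLR4 itself was dim, with 50.8, 144 and 303 on LPS+TGFβ1 arrays, against 29.4, 136 and 202 on TGFβ1 arrays. Its arrays overlapped, and its log2 change of 0.22 ± 0.31 did not pass (adjusted p = 0.695). The 2 genes that fell, named after their values were seen, were SIGIRR, an inhibitory receptor of this family (-0.94 ± 0.056), and TAB1, a partner of the kinase TAK1 (-0.41 ± 0.091). Among 24 other innate sensors, 16 rose and 2 fell, with a median of 0.52. TLR8, a sensor of single-stranded RNA, read 894, 1022 and 1197 on LPS+TGFβ1 arrays, against 23.4, 34.01 and 41.8 on TGFβ1 arrays, with no overlap. The RNA sensors IFIH1 and DHX58 rose 10.1-fold and 6.68-fold. STING1, the adaptor of cytosolic DNA sensing, and NOD1, a sensor of bacterial cell walls, fell, with log2 changes of -1.30 and -0.41; both were named after their values were seen.

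Of 25 NF-kB subunits and feedback inhibitors, 22 rose and 1 fell, and the median log2 change was 2.00. SOD2, a mitochondrial superoxide dismutase and a standard NF-kB target, read 18895, 23033 and 27453 on LPS+TGFβ1 arrays, against 871, 1143 and 1309 on TGFβ1 arrays. TNFAIP3, which encodes the ubiquitin-editing inhibitor A20, read 4814, 6215 and 7814 on LPS+TGFβ1 arrays, against 349, 415 and 445 on TGFβ1 arrays. NFKBIZ, a nuclear IkB protein, read 5765, 6259.8 and 6568 on LPS+TGFβ1 arrays, against 352, 402 and 538 on TGFβ1 arrays. None of the 3 genes had overlapping groups, and they rose 20.2-fold, 13.6-fold and 13.5-fold (adjusted p of 1.4e-27 for NFKBIZ). Within chips the median of this list ran between 1.80 and 1.91. CISH, a suppressor of cytokine signalling named after its values were seen, fell (-0.48 ± 0.072). The longer NF-kB form lay in the windows of 8 of 23 genes of this list (34.8%), 3 of 15 cytokine genes and 3 of 15 chemokine genes, against 0.771% of 10893 tested genes with a window and 0.558% of all 35116 windows.

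Interferon-stimulated antiviral genes rose as nearly one block. Of 48 tested, 46 rose, all at least 2-fold, and 0 fell in limma (0 also by p before adjustment under 0.05), with a median log2 change of 2.73. MX1, a dynamin-like GTPase that blocks viral replication, read 15234, 22676 and 39041 on LPS+TGFβ1 arrays, against 335, 418 and 794 on TGFβ1 arrays. IFI44L read 3472, 9169 and 16006 on LPS+TGFβ1 arrays, against 29.2, 39.2 and 49.03 on TGFβ1 arrays, and IFI27 read 1844, 9778 and 18230.0 on LPS+TGFβ1 arrays, against 5.01, 28.9 and 79.9 on TGFβ1 arrays. None of the 3 overlapped between the groups, and their log2 changes were 5.46 ± 0.30, 6.43 ± 0.39 and 6.41 ± 0.47. Over the alternative fits, which include single chips, the IFI27 change ran between 4.68 and 7.98. IFI44, the neighbour of IFI44L in name and family, rose 41.7-fold. The size differed between chips: the median of the list was 1.86 within chip 2, 2.77 within chip 1, 2.71 within chip 4 and 3.66 within chip 3. Chips differed in the same order for CXCL10, with log2 changes between 6.58 on chip 2 and 8.56 on chip 3. The part of the set of arrays in these sizes was not tested.

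Genes of the IRF and STAT transcription factors moved less evenly. Of 11 IRF and STAT genes tested, 6 rose and 1 fell. IRF7, which amplifies type I interferon, rose 8.99-fold by its brightest probe, whereas its other probe had a log2 change of 0.35. That other probe was dim, above background on 6 LPS+TGFβ1 arrays and 0 TGFβ1 arrays. IRF9, a factor of the interferon response, read 3556, 4075 and 4942 on LPS+TGFβ1 arrays, against 792, 1010.0 and 1285 on TGFβ1 arrays, with no overlap. STAT4 rose 4.52-fold. IRF8, a factor of the monocytic lineage named after its values were seen, read 7239.7, 7869 and 10640.0 on LPS+TGFβ1 arrays, against 13304, 14421 and 15644 on TGFβ1 arrays and was 1.74-fold lower, with no overlap. Of 6 guanylate-binding proteins, GTPases that attack intracellular pathogens, 5 rose and 0 fell, with a median of 3.03 (1.85 within chip 2 and 3.86 within chip 3). GBP2, GBP4 and GBP5 rose 11.4-fold, 8.25-fold and 8.09-fold, GBP1 rose at least 7.62-fold from below background, and GBP3 rose 1.48-fold; GBP3 and GBP5 were named after their values were seen.

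The response element core was found in the windows of 29 of 38 antiviral genes (76.3%), 11 of 15 genes of MHC class I presentation (73.3%) and 3 of 4 guanylate-binding proteins, against 4.08% of tested genes with a window. Across tested genes with a window, 28.2% of the 444 with the core rose and 15.8% rose at least 2-fold, against 15.1% and 3.03% of the 10449 without it. For the longer NF-kB form the shares were 47.6% and 26.2% of 84 genes, against 15.4% and 3.38% of 10809 without it. For the shorter NF-kB form they were 18.8% and 4.7% of 319 genes, against 15.5% and 3.52%. For the spaced STAT dimer letters (TTCNNNGAA), present in 7.66% of all windows, they were 18.3% and 5.97% of 955 genes, against 15.4% and 3.32%. The 2 NF-kB forms are different lengths of 1 site, and 1 window may hold both, as in TNFAIP3. These shares are descriptions over genes and carry no test.

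**Figure D2:**
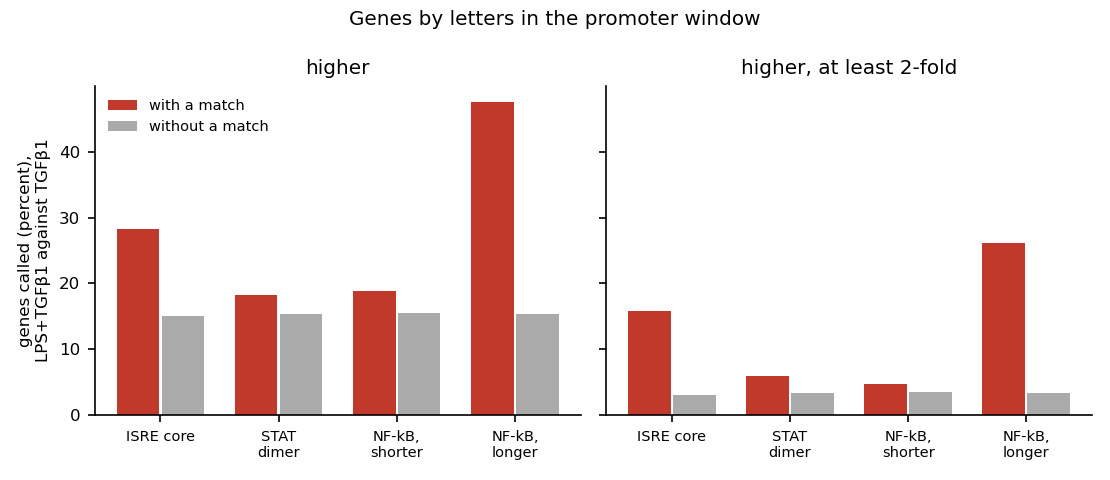
Percent of genes (vertical axis) called higher (left panel) and higher at least 2-fold (right panel) in LPS+TGFβ1 against TGFβ1, for genes with (red) and without (grey) each set of letters in the promoter window. The longer NF-kB form had the tallest bars, 47.6% and 26.2%, and the response element core came next with 28.2% and 15.8%.

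Genes of antigen presentation rose by smaller amounts. Of 17 genes of MHC class I presentation, 13 rose and 0 fell, with a median log2 change of 0.76 (0.57 within chip 2 and 1.30 within chip 3). TAP1, the peptide transporter, read 6549, 10082 and 16270.0 on LPS+TGFβ1 arrays, against 1791, 1855 and 2124 on TGFβ1 arrays, with no overlap. HLA-F rose 2.68-fold. Of 13 genes of MHC class II presentation, 6 rose and 0 fell, with a median of 0.56 (0.30 within chip 2 and 0.83 within chip 3). CD74, the invariant chain, rose 2.39-fold without overlap. HLA-DRA read 795, 2056 and 3517 on LPS+TGFβ1 arrays, against 455, 842 and 1022 on TGFβ1 arrays. Its arrays overlapped, and the call (log2 change 1.16 ± 0.37, adjusted p = 0.0139) ended with chip 1 or chip 3 left out (adjusted p = 0.054 and 0.131). Of 24 costimulatory and adhesion genes, 17 rose and 2 fell, with a median of 0.69. CD83, a marker of mature dendritic cells, read 1958, 3169.7 and 4577 on LPS+TGFβ1 arrays, against 187, 216 and 259 on TGFβ1 arrays. CD40 read 604, 739.9 and 928 on LPS+TGFβ1 arrays, against 49.05, 62.5 and 75.3 on TGFβ1 arrays, and CD80, a ligand of CD28, was below background on all TGFβ1 arrays and rose at least 5.56-fold. No arrays overlapped in these 3 genes. The 2 that fell, named after their values were seen, were the adhesion genes ICAM3 (-1.32 ± 0.15) and ITGB7 (-0.68 ± 0.23, adjusted p = 0.025), and the ITGB7 call ended without LPS+TGFβ1 replicate 7 (adjusted p = 0.063), as in 3 of 16 such fits.

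Surface and secreted effectors of macrophages followed. Of 18 scavenger and Fc receptors, 9 rose and 1 fell, against 15.6% of all genes higher and 17.8% lower, with a median log2 change of 0.40. CD36, which takes up oxidised lipoprotein, read 1284, 1682 and 2121 on LPS+TGFβ1 arrays, against 317, 419.6 and 600.4 on TGFβ1 arrays, with no overlap, and LILRA2, an activating immunoglobulin-like receptor, was 2.69-fold lower. Of 16 complement genes, 6 rose and 3 fell, with a median of 0.27, and the falls were near the share of all genes. The anaphylatoxin receptor C3AR1 and the C1q chain C1QB were below background on all TGFβ1 arrays and rose at least 2.58-fold and 1.88-fold. C5AR1, the receptor of C5a, had a log2 change of 0.58 ± 0.16 (adjusted p = 0.00408), and that call ended with chip 2 left out (adjusted p = 0.0785). The 3 that fell, CFD, CD55 and C1S, were named after their values were seen and had log2 changes of -0.40, -0.35 and -0.29. Their calls ended without chip 2 (CFD, adjusted p = 0.0537), without chip 3 (CD55, 0.173) and without TGFβ1 replicate 4 (C1S, 0.0776, as in 9 of 16 such fits). Of 20 matrix proteases and inhibitors, 11 rose and 1, TIMP2, fell (-0.34, named after its value was seen), with a median of 0.47. MMP9, a gelatinase, read 5650.1, 8169.5 and 11294 on LPS+TGFβ1 arrays, against 24.2, 125 and 167 on TGFβ1 arrays. ADAMDEC1, a metalloproteinase of macrophages and dendritic cells, read 1532, 3670.4 and 5937 on LPS+TGFβ1 arrays, against 21.3, 142 and 167 on TGFβ1 arrays. Neither gene had overlapping arrays. PLAUR, the urokinase receptor, rose 3.98-fold.

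Of 23 lysosomal genes, 10 rose and 1, LAMP1, fell (-0.49 ± 0.071, named after its value was seen). This compares with 15.6% of all genes higher and 17.8% lower. The list thus rose more often than all genes, although its median of 0.066 was close to that of all genes. CTSH, a lysosomal cysteine protease, read 19896, 27111 and 30996 on LPS+TGFβ1 arrays, against 5381, 5911 and 6204 on TGFβ1 arrays, with no overlap, while CTSD and ARSB rose 1.803-fold and 1.82-fold. Of 15 lipid mediator enzymes, 7 rose and 2 fell, with a median of 0.20, and the falls were no more frequent than among all genes. LTC4S, the leukotriene C4 synthase, read 547, 684 and 1281 on LPS+TGFβ1 arrays, against 2265, 3586 and 4259.5 on TGFβ1 arrays. It was 4.45-fold lower, without overlap (adjusted p = 3.76e-08), and LTA4H, the hydrolase that makes leukotriene B4, had a log2 change of -0.59 ± 0.14, named after its value was seen. TBXAS1, the thromboxane synthase, rose 2.51-fold. ALOX5, which starts leukotriene synthesis, read 6856, 7705 and 9218 on LPS+TGFβ1 arrays, against 6865, 7191 and 8245 on TGFβ1 arrays, and its log2 change of 0.11 ± 0.085 did not pass (adjusted p = 0.38).

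Genes of the TGFβ pathway rose more often than all genes when LPS was added, and fell no more often than all genes. Of 34 SMAD target genes, 11 rose and 6 fell, against 15.6% of all genes higher and 17.8% lower, with a median log2 change of 0.17. TGFBI, a matrix protein named for its induction by TGFβ, read 13184, 16841 and 19748 on LPS+TGFβ1 arrays, against 9201, 10085 and 10331 on TGFβ1 arrays. It rose 1.67-fold, with no overlap (adjusted p = 6.62e-07). SPHK1, the sphingosine kinase, CDKN1A, which encodes the CDK inhibitor p21, and VEGFA, the angiogenic factor, rose 3.42-fold, 3.89-fold and 2.38-fold. A second CDKN1A probe, above background on 3 LPS+TGFβ1 arrays and 0 TGFβ1 arrays, had a log2 change of 0.32. COL4A1, a basement membrane collagen, read 75.3, 114 and 153 on LPS+TGFβ1 arrays, against 305, 341 and 397 on TGFβ1 arrays and was 2.45-fold lower. Of 22 receptors, SMADs and regulators, 6 rose and 3 fell, against the same 15.6% and 17.8% of all genes, with a median of 0.046. SMAD7, the inhibitory SMAD that TGFβ induces, read 312, 352 and 500.4 on LPS+TGFβ1 arrays, against 124, 179.6 and 208 on TGFβ1 arrays. The activin receptor ACVR2A rose 2.82-fold, and the co-receptors ENG and TGFBR3 rose 1.81-fold and 1.605-fold. The 3 that fell, SMAD4, SMAD5 and ZFYVE9, an anchor of SMADs, were named after their values were seen and had log2 changes of -0.23, -0.21 and -0.24. All 3 of those calls ended with chip 3 left out (adjusted p = 0.231, 0.0912 and 0.233), and that of SMAD4 also without LPS+TGFβ1 replicate 4 (0.103), as in 9 of 16 such fits. TGFB1 was below background on all 16 arrays. AXL, a receptor kinase of macrophages, read 1294, 2493 and 5162 on LPS+TGFβ1 arrays, against 1183, 2189 and 2531 on TGFβ1 arrays, overlapped between the groups and did not pass (adjusted p = 0.488).

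RGS16, VASH1, C3 and OLR1 were set for description with earlier results of these data known. RGS16, a regulator of G-protein signalling, read 3487, 5071 and 6476 on LPS+TGFβ1 arrays, against 1559.5, 1695 and 1892 on TGFβ1 arrays. VASH1, an angiogenesis inhibitor, read 3868, 4383 and 4714 on LPS+TGFβ1 arrays, against 2056, 2281 and 2979 on TGFβ1 arrays. C3, the central complement component, read 2780.4, 3119.9 and 4385 on LPS+TGFβ1 arrays, against 1364, 1819 and 2587 on TGFβ1 arrays. In none of these 3 did the groups overlap, and they rose 2.86-fold, 1.799-fold and 1.75-fold. OLR1, a receptor of oxidised lipoprotein, read 2132, 3840.5 and 5752 on LPS+TGFβ1 arrays, against 603, 3413 and 3838 on TGFβ1 arrays. Its arrays overlapped, and the log2 change of 0.94 ± 0.34 (adjusted p = 0.0316) lost its call without TGFβ1 replicate 3 (adjusted p = 0.0945), as in 7 of 16 such fits.

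Of 15 genes of anti-inflammatory and alternative activation, 7 were higher and 3 lower, against 15.6% and 17.8% of all genes, with a median of 0.18. IDO1, which degrades tryptophan, was below background on all TGFβ1 arrays and rose at least 3.78-fold, with intensities of 74.5 to 888 on LPS+TGFβ1 arrays. IL1RN, the antagonist of the interleukin-1 receptor, rose 3.81-fold (log2 change 1.93 ± 0.44), with 0.34 within chip 2 and 3.34 within chip 3. F13A1, the A chain of coagulation factor XIII, was 2.704-fold lower, and PPARG and IL18BP, both named after their values were seen, had log2 changes of -1.13 and -1.05.

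**Figure D3:**
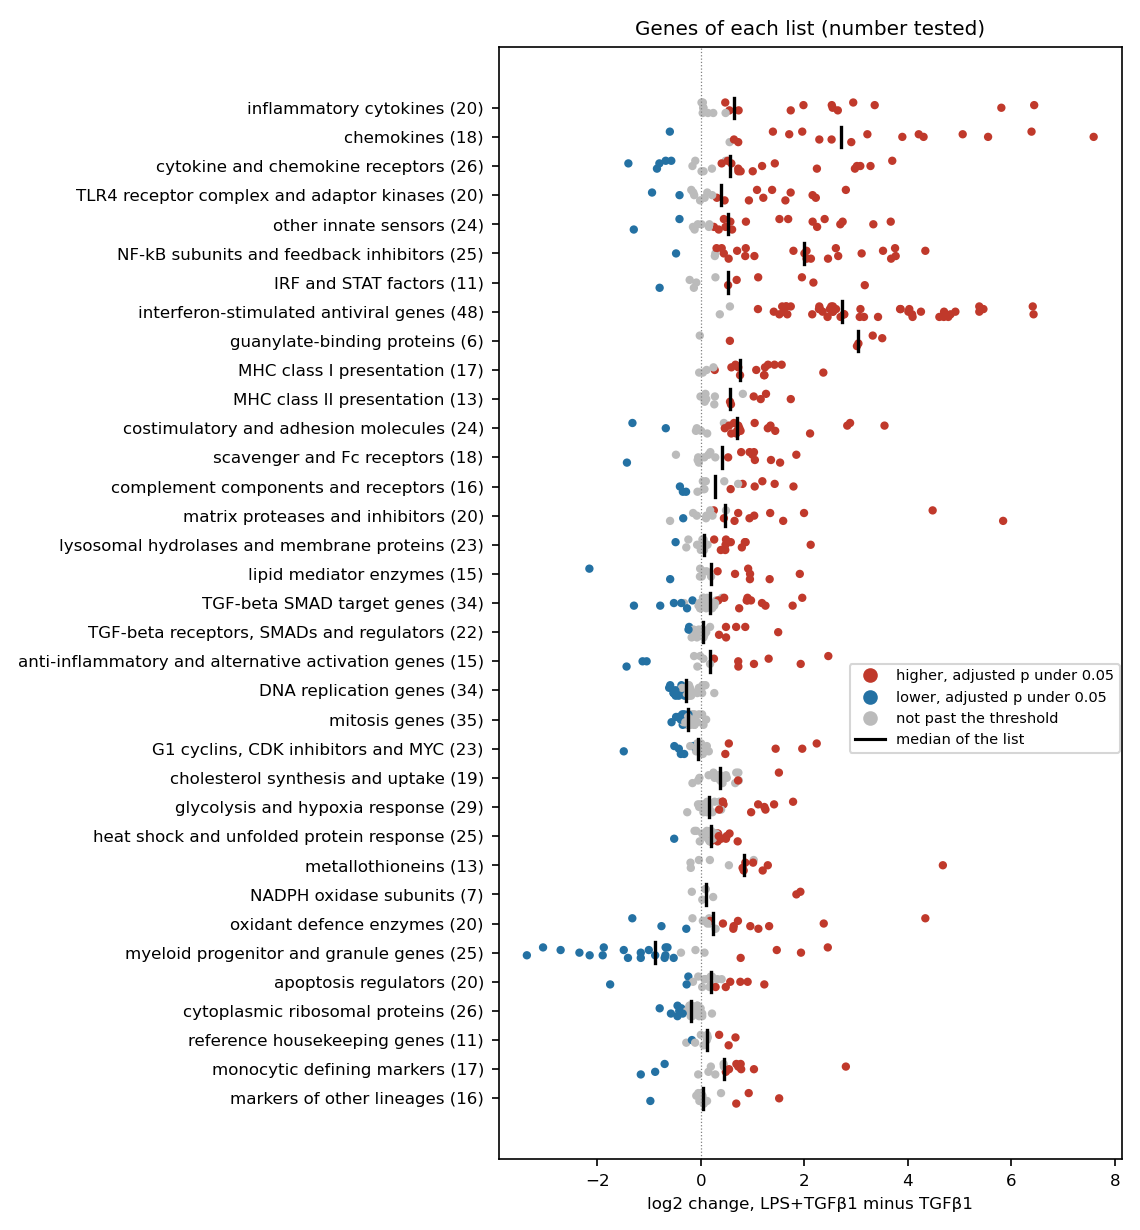
Log2 change, LPS+TGFβ1 minus TGFβ1 (horizontal axis), of every tested gene of 35 lists (rows, with the number tested); red points rose and blue points fell at an adjusted p under 0.05, grey points did not pass, and black bars are list medians. Chemokines (2.72), antiviral genes (2.73) and guanylate-binding proteins (3.03) have the highest medians and myeloid progenitor and granule genes (-0.88) the lowest.

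Genes of granules and precursors of the myeloid lineage had the lowest median of the 35 lists. Of 25 tested, 18 fell and 4 rose, against 17.8% of all genes lower, with a median log2 change of -0.88. CEACAM6, an adhesion molecule of granulocytes and their precursors, read 23.7, 204 and 466 on LPS+TGFβ1 arrays, against 1335, 1684 and 2972 on TGFβ1 arrays. MS4A3, a membrane protein of granulocyte and monocyte precursors, read 587, 1236 and 2000.0 on LPS+TGFβ1 arrays, against 7862, 9747 and 10727 on TGFβ1 arrays. Neither overlapped, and they were 10.3-fold and 8.28-fold lower (adjusted p = 1.71e-07 and 4.72e-08). CAMP, the precursor of the antimicrobial peptide LL-37, read 19.3, 35.3 and 56.1 on LPS+TGFβ1 arrays, against 305, 557 and 783 on TGFβ1 arrays. It was 6.54-fold lower and was above background on 3 of 8 LPS+TGFβ1 arrays. KIT, the stem cell factor receptor, and MYB, a factor of immature blood cells, were 5.08-fold and 2.81-fold lower. The change of MS4A3 was -2.07 within chip 2 and -3.96 within chip 3, so that its change, like that of CXCL10, was smaller on chip 2 and larger on chip 3. The 4 that rose, named after their values were seen, were the alarmin genes S100A8 (1.47), S100A9 (1.94) and S100A12 (2.45) and SPI1 (0.77), which encodes the myeloid factor PU.1. Among the monocytic markers, 8 of 17 rose and 3 fell, against 15.6% of all genes higher and 17.8% lower, with a median of 0.45. The falls were thus near the share of all genes. The 3 were MPO (at least 1.51-fold lower), LYZ (-0.88) and CEBPA (-0.70), LYZ and CEBPA being named after their values were seen. Of the 16 tested markers of other lineages, 3 rose and 1 fell, with a median of 0.033, and the rises were near the share of all genes. DCN (at least 2.26-fold), CDH1 (0.93) and NKG7 (0.68) were higher and CD79B (-0.98) lower. Another 2 DCN probes, above background on 2 and 0 LPS+TGFβ1 arrays and on 0 TGFβ1 arrays, did not pass. The CDH1 call ended with chip 3 left out (adjusted p = 0.0751), and NKG7 was named after its value was seen. The part of other cells in the falls was not tested.

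Several of the 12 largest falls lay outside these lists. DEPTOR, an inhibitor of mTOR, read 91.4, 108 and 119.6 on LPS+TGFβ1 arrays, against 841, 1041 and 1285 on TGFβ1 arrays. FBP1, the fructose bisphosphatase of gluconeogenesis, read 146, 178 and 221 on LPS+TGFβ1 arrays, against 1034, 1402 and 1561 on TGFβ1 arrays. NFE2, a factor of erythroid and megakaryocytic genes, read 115, 163 and 189.6 on LPS+TGFβ1 arrays, against 660.0, 863 and 1088 on TGFβ1 arrays. NRGN, a calmodulin-binding protein, read 226, 343 and 553 on LPS+TGFβ1 arrays, against 1134, 1934 and 2571 on TGFβ1 arrays. In all 4 the LPS+TGFβ1 arrays lay below the TGFβ1 arrays without overlap, by 7.102-fold, 6.06-fold, 4.63-fold and 4.899-fold (adjusted p = 2.63e-25, 7.18e-17, 4.97e-11 and 1.62e-09).

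Cell cycle genes fell slightly. Of 34 DNA replication genes, 13 fell and 0 rose in limma (20 and 1 by p before adjustment), with a median log2 change of -0.28. Among 35 mitosis genes, 14 fell and 0 rose (20 and 0 unadjusted), with a median of -0.24. LIG1, the ligase of replicated DNA, read 465, 514 and 537 on LPS+TGFβ1 arrays, against 739, 803 and 857 on TGFβ1 arrays, without overlap. MCM4, a helicase subunit, and UHRF1, which couples DNA methylation to replication, had log2 changes of -0.59 ± 0.13 and -0.53 ± 0.13. The centromere genes CENPA and CENPM fell by similar amounts (-0.57 and -0.48). Of 23 G1 genes, 5 rose and 6 fell, against 15.6% of all genes higher and 17.8% lower, with a median of -0.055. MYB, given above, was among the 6 that fell, and the rest of those are not named. CCND1, which encodes cyclin D1, read 853, 1554 and 2514 on LPS+TGFβ1 arrays, against 176, 240.0 and 435 on TGFβ1 arrays, without overlap. The other 4 that rose were CDKN1A, given above, and MXD1 (1.45), RB1 (0.54) and MYC (0.47), named after their values were seen; the RB1 call ended without LPS+TGFβ1 replicate 2 (adjusted p = 0.0799), as in 6 of 16 such fits.

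**Figure D4:**
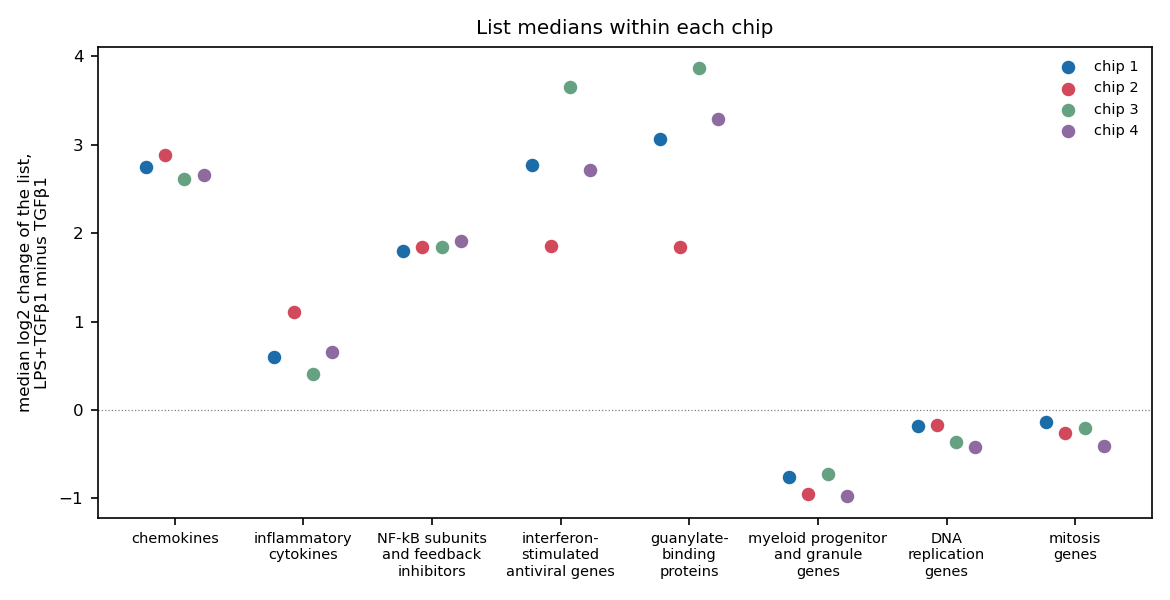
Median log2 change of 8 lists, LPS+TGFβ1 minus TGFβ1 (vertical axis), computed within each chip from 2 arrays per treatment; points are chips. The medians of chemokines and of the NF-kB list are nearly level across chips, whereas that of antiviral genes ran between 1.86 on chip 2 and 3.66 on chip 3.

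Most metabolic and stress lists rose more often than all genes, of which 15.6% were higher and 17.8% lower. Genes of cholesterol synthesis and uptake did not. Of 29 genes of glycolysis and the hypoxia response, 11 rose and 0 fell, with a median of 0.16. HIF1A, the hypoxia factor, read 797, 1015 and 1254 on LPS+TGFβ1 arrays, against 277, 330.4 and 424 on TGFβ1 arrays, and the vasodilator peptide gene ADM read 379, 408 and 508 on LPS+TGFβ1 arrays, against 28.5, 107 and 145 on TGFβ1 arrays; neither had overlapping groups. Of 19 genes of cholesterol synthesis and uptake, 2 rose and 0 fell, with a median of 0.37. They were the sterol carrier STARD4 (0.72 ± 0.16) and the cholesterol exporter ABCA1 (1.51 ± 0.51), and the ABCA1 call ended without TGFβ1 replicate 3 (adjusted p = 0.0515). Of 25 heat shock and unfolded protein genes, 10 rose and 1, TRIB3, fell (-0.52 ± 0.19), with a median of 0.20, and the TRIB3 call ended without LPS+TGFβ1 replicate 2 (adjusted p = 0.11), as in 9 of 16 such fits. PDIA4, an enzyme that forms disulphide bonds in the endoplasmic reticulum, rose 1.64-fold. Of 13 metallothioneins and their regulators, 7 rose and 0 fell, with a median of 0.83 that ran between 0.20 and 1.48 within chips. MT2A, which binds zinc and copper, read 3043, 10505 and 16168 on LPS+TGFβ1 arrays, against 189, 295 and 514 on TGFβ1 arrays, without overlap.

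Of 7 NADPH oxidase genes, 2 rose and 0 fell, with a median of 0.095. CYBB, the catalytic subunit gp91phox, read 3309.5, 4145 and 5892 on LPS+TGFβ1 arrays, against 930.2, 1090.3 and 1244 on TGFβ1 arrays, with no overlap, and NCF1, which has near-identical copies in the genome and is therefore uncertain as a gene, had a log2 change of 1.85 ± 0.41. Of 20 oxidant defence enzymes, 10 rose and 3 fell, against 15.6% of all genes higher and 17.8% lower, with a median of 0.23. HMOX1, the inducible haem oxygenase, read 774, 984 and 1412 on LPS+TGFβ1 arrays, against 116, 134 and 239.9 on TGFβ1 arrays, and CAT, the catalase, read 321, 402 and 562 on LPS+TGFβ1 arrays, against 865, 1082 and 1556 on TGFβ1 arrays. HMOX1 was higher and CAT lower on all LPS+TGFβ1 arrays. TXNIP (-0.76) and GPX1 (-0.28), named after their values were seen, also fell. Their calls ended without chip 2 (TXNIP, adjusted p = 0.0598) and without LPS+TGFβ1 replicate 4 (GPX1, 0.0957, as in 7 of 16 such fits). Of 20 apoptosis regulators, 6 rose and 3 fell, with a median of 0.19. In the oxidant defence and apoptosis lists, falls were thus no more frequent than among all genes. The death receptor TNFRSF10B rose 2.34-fold by its brightest probe, while its other probes had log2 changes of 0.14, which did not pass, and 0.32. Those probes were near background, above it on 2 and 4 LPS+TGFβ1 arrays and on 0 TGFβ1 arrays. BCL2, the inhibitor of mitochondrial apoptosis, read 616, 842 and 1048 on LPS+TGFβ1 arrays, against 2477, 2939.6 and 3413 on TGFβ1 arrays, with no overlap. Its other probe was dim, with a mean of 78.9 on TGFβ1 arrays, and fell by less (-0.49). APAF1 (-0.24) and CYCS (-0.27), both of the apoptosome and named after their values were seen, fell, with calls that ended without chip 2 (APAF1, adjusted p = 0.0615) and without chip 3 (CYCS, 0.209). Of 26 ribosomal protein genes, 7 fell and 0 rose (11 and 1 unadjusted), with a median of -0.19, and RPS23 and RPL32 were 1.74-fold and 1.49-fold lower. Of 11 housekeeping genes, 3 rose, namely B2M (0.67), TFRC (0.54) and PGK1 (0.35), and SDHA fell (-0.17, named after its value was seen), a call that ended without TGFβ1 replicate 3 (adjusted p = 0.0905), as in 6 of 16 such fits.

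To ask whether TGFβ1 altered the response to LPS, the change above was set against LPS minus PBS in the cells without TGFβ1. These comparisons share no array, though they share the chips. Without TGFβ1, LPS raised 2917 genes (21.8%) and lowered 3032 (22.7%), with 729 raised (5.45%) and 364 lowered (2.72%) at least 2-fold. Across 13386 genes the log2 changes had a Pearson r of 0.898 and a Spearman rho of 0.778, as a description over genes, which are not independent. Of the 509 genes that rose at least 2-fold with TGFβ1 present, 449 (88.2%) also did so without it, where they were 61.6% of 729 genes. Of the 211 that fell at least 2-fold, 153 (72.5%) also fell at least 2-fold without TGFβ1, where they were 42% of 364. No gene passed the 2-fold threshold in opposite directions. The difference itself, the LPS effect with TGFβ1 minus the LPS effect with PBS, passed in 427 genes as positive (3.19%) and in 642 as negative (4.8%). Which direction was more frequent depended on the scaling: 518 probes were positive and 821 negative, against 774 and 594 with each array scaled to its median, and 696 and 861 with quantile scaling. Of the 509 genes that rose at least 2-fold, 109 had a negative difference, 29 a positive one and 371 none that passed. Of the 48 antiviral genes, 0 had a difference that passed in limma, and 0 had one at an unadjusted p under 0.05. A missed threshold does not show that the effects were equal: MX1 had a difference of -0.11 ± 0.42 (adjusted p = 0.935) and CXCL10 of 0.44 ± 0.66 (adjusted p = 0.801).

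**Figure D5:**
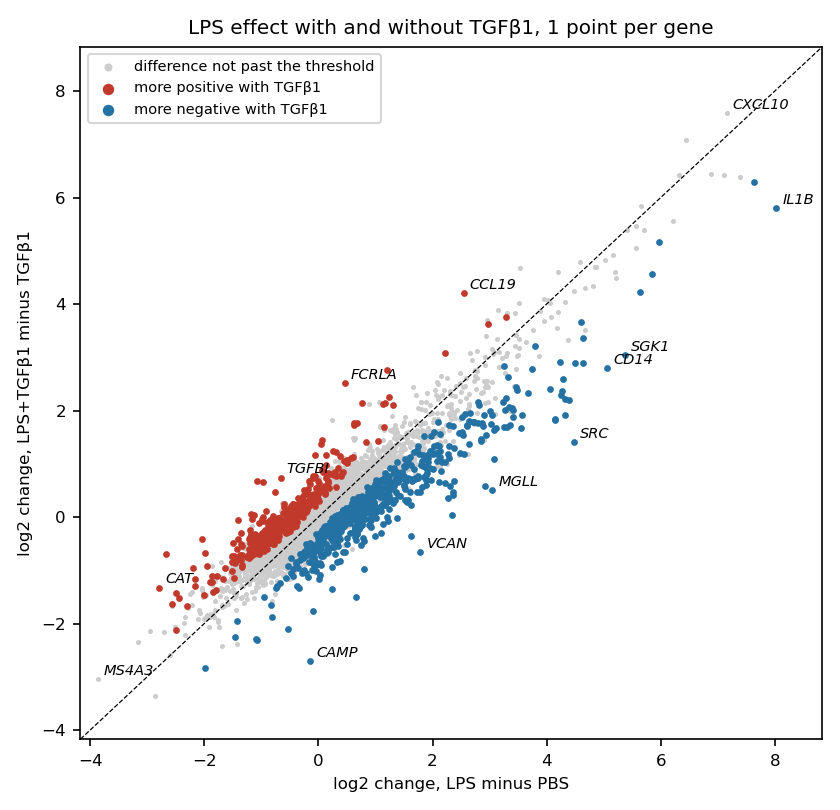
Log2 change made by LPS with TGFβ1 present (vertical axis, LPS+TGFβ1 minus TGFβ1) against that made by LPS without it (horizontal axis, LPS minus PBS), 1 point per gene for 13386 genes; red and blue points have a positive and a negative difference at an adjusted p under 0.05, and the dashed line marks equal changes. Most points lie along the line, with IL1B, CD14, SGK1 and SRC below it and CCL19, FCRLA, TGFBI and CAT above it.

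The smaller responses with TGFβ1 included the LPS co-receptor CD14 and the signalling kinase IRAK2. SRC, a membrane-bound tyrosine kinase, read 1672, 1944 and 2578 on LPS+TGFβ1 arrays, against 542, 730.3 and 913 on TGFβ1 arrays, and 2712, 4896 and 7675 on LPS arrays, against 99.4, 162 and 208 on PBS arrays. The group given LPS without TGFβ1 was the brightest and the PBS group the dimmest, with no overlap among the 4, and the difference of the LPS effects was -3.07 ± 0.27 (adjusted p = 6.93e-10). Its other probes had log2 changes of 0.28 and 0.0034 when LPS was added to TGFβ1 and did not pass. They were near background, above it on 2 and 0 LPS+TGFβ1 arrays and on 0 TGFβ1 arrays. CD14 read 8808, 11389 and 14418 on LPS arrays, against 149, 341 and 437 on PBS arrays. Its TGFβ1 arrays, given above, already lay above the PBS arrays, and the difference was -2.26 ± 0.28 (adjusted p = 6.08e-07). IL1B read 23774, 28735 and 32816 on LPS arrays, against 32.7, 65.7 and 87.4 on PBS arrays, and the difference was -2.22 ± 0.26 (adjusted p = 2.38e-07). IRAK2 read 3503, 3905 and 4978 on LPS arrays, against 109, 131 and 250.1 on PBS arrays, with a difference of -2.11 ± 0.32. SGK1, a serum- and glucocorticoid-induced kinase, read 9429, 10594 and 12711 on LPS+TGFβ1 arrays, against 947, 1242 and 1529 on TGFβ1 arrays, and 9196, 11067 and 14697 on LPS arrays, against 179, 228 and 292 on PBS arrays. The LPS-treated arrays of SGK1 overlapped with and without TGFβ1, while the TGFβ1 arrays lay above the PBS arrays, and the difference was -2.32 ± 0.14 (adjusted p = 3.87e-13).

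In HMOX1 and CYBB, too, TGFβ1 arrays lay above PBS arrays, while the arrays with LPS overlapped with and without TGFβ1. HMOX1 read 1286, 1464 and 1702 on LPS arrays, against 20.2, 27.9 and 44.5 on PBS arrays, and the difference was -1.89 ± 0.18. CYBB read 2068, 3088 and 4226 on LPS arrays, against 167, 209 and 281 on PBS arrays, and the difference was -1.64 ± 0.20. C5AR1 read 405, 559.9 and 743 on LPS arrays, against 11.4, 39.8 and 51.6 on PBS arrays. The LPS arrays lay above the arrays of all other treatments. Its difference was -2.34 ± 0.22 (adjusted p = 4.02e-09). MGLL, which breaks down monoacylglycerols, read 162, 205 and 221 on LPS+TGFβ1 arrays, against 104, 126 and 143 on TGFβ1 arrays, and 406, 637 and 797 on LPS arrays, against 15.1, 31.4 and 43.4 on PBS arrays. The rise with LPS was 1.42-fold with TGFβ1 present, and the difference was -2.53 ± 0.16. CXCL8, CD80, PLAUR, CSF1R, CD163 and C3AR1 also had negative differences that passed, between -1.61 for CD80 and -0.93 for C3AR1. The CSF1R, CD163 and C3AR1 genes thus rose less on top of TGFβ1 than on top of PBS. IL6 had a difference of -1.28 ± 0.37 (adjusted p = 0.0251), which ended with chip 1, 3 or 4 left out (adjusted p of 0.0842 to 0.138). IL6, CD80, CD163 and C3AR1 were below background on all TGFβ1 and all PBS arrays, and HMOX1 and MGLL on all PBS arrays, so these differences rest on readings at background and are fitted values, not bounds.

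CAMP and VCAN had negative differences without a rise that passed on top of TGFβ1. CAMP read 18.2, 39.7 and 56.4 on LPS arrays, against 12.2, 57.4 and 77.4 on PBS arrays. Its arrays overlapped without TGFβ1 (log2 change -0.15, adjusted p = 0.51), whereas with TGFβ1 it fell, and the difference was -2.56 ± 0.24 (adjusted p = 2.44e-09). Background limits of the PBS arrays ran from 27.0 to 55.4, so CAMP was near background there. A fall without TGFβ1 had little room to show, and the difference is a fitted value. VCAN, a large matrix proteoglycan, read 91.99, 161 and 259 on LPS+TGFβ1 arrays, against 204, 228 and 464 on TGFβ1 arrays, and 126, 348 and 634 on LPS arrays, against 33.7, 50.95 and 71.1 on PBS arrays. LPS raised it without TGFβ1 (log2 change 1.78), its change with TGFβ1 of -0.66 ± 0.27 did not pass (adjusted p = 0.0617), and the difference was -2.45 ± 0.38 (adjusted p = 4.14e-05). The VCAN change with TGFβ1 did pass, as a fall, in 13 of 39 alternative fits.

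Among the genes with positive differences, TGFBI read 1772, 2372 and 3273 on LPS arrays, against 3418, 3788 and 4026 on PBS arrays. LPS lowered it without TGFβ1 (-0.66, adjusted p = 2.84e-06) and raised it with TGFβ1, and the difference was 1.40 ± 0.15 (adjusted p = 3.88e-08), between 1.36 and 1.47 within the 4 chips. CDC42EP4, an effector of the GTPase CDC42, and GALNT12, which starts O-linked glycans, also fell with LPS in the absence of TGFβ1 and rose in its presence. CDC42EP4 read 978, 1168 and 1540.3 on LPS+TGFβ1 arrays, against 662, 739 and 805 on TGFβ1 arrays, and 258, 391 and 533 on LPS arrays, against 694, 896 and 918 on PBS arrays. GALNT12 read 498, 744 and 878 on LPS+TGFβ1 arrays, against 344, 426 and 508 on TGFβ1 arrays, and 108, 135 and 180.4 on LPS arrays, against 254, 324 and 406 on PBS arrays. The GALNT12 arrays with LPS+TGFβ1 and with TGFβ1 overlapped, those of CDC42EP4 did not. Their differences were 1.75 ± 0.16 and 1.64 ± 0.15. CADM1, a cell adhesion molecule, read 1195, 1906 and 2333 on LPS+TGFβ1 arrays, against 169.5, 187 and 324 on TGFβ1 arrays. On LPS arrays its mean was 159 ± 45.6, against 40.5 ± 14.5 on PBS arrays (SD, n = 8 each), with a difference of 1.57 ± 0.21. FCRLA, an Fc receptor-like protein known from B cells, was below background on all TGFβ1 arrays. It read 179 to 549.6 on LPS+TGFβ1 arrays, and the difference was 2.06 ± 0.25 (adjusted p = 5.99e-07), a fitted value with the other 3 treatments below background on all their arrays. NREP fell less with TGFβ1 present (-0.40) than without (-2.04), by 1.64 ± 0.18. CAT also fell less, with 147, 274 and 418 on LPS arrays, against 1629.8, 2039 and 3302 on PBS arrays and a difference of 1.47 ± 0.23 (adjusted p = 2.99e-05).

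More cell cycle genes fell with LPS in the absence of TGFβ1 than in its presence, though few of them passed the test of the difference. DNA replication genes that fell numbered 13 of 34 with TGFβ1 present and 29 of 34 without it, with medians of -0.28 and -0.65, and 4 had a difference that passed, all positive, against 3.19% of all genes (17 positive and 0 negative by p before adjustment). Mitosis genes that fell numbered 14 of 35 with TGFβ1 and 29 of 35 without it, with medians of -0.24 and -0.53, and 4 had a positive difference and 0 a negative one (12 and 1 by p before adjustment). Larger shares passed in other lists, as negative differences. They were 7 of 17 among monocytic markers, 6 of 18 among scavenger and Fc receptors and 5 of 20 among TLR4 genes, against 4.8% of all genes. In each of these lists 0 were positive, also at an unadjusted p under 0.05.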

How the data were processed

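RNA of THP-1 cells was measured on 32 Illumina arrays, 8 per treatment. The deposited values are linear probe intensity from the authors' value table; the submitters' processing notes name BeadStudio 3.2, and which background correction and normalization were applied is not given in the sources used here. Another 64 columns of the deposited non-normalized table match no sample name and were not used. Of 24518 probes, 21826 had 1 gene name in the platform annotation and 2692 none. With R 4.3.3 and limma 3.58.1 (lmFit, eBayes), log2(intensity + 50) was fitted over all 32 arrays by group means, without the lowest 25% of probes by mean. P-values were two-sided, with Benjamini-Hochberg adjustment over all 18388 probes tested. A probe counted as above background past the mode of an array's values plus 3 SDs of the values below it. Named genes were drawn from the 12 largest rises and falls of equal sign within the 4 chips and 3 genes from each of 35 lists by size of change. Further sources were the 8 largest differences in each direction and a fixed set. Not every gene of these sets is named. Others are marked in the text as named after their values were seen. Each gene stands by its brightest probe. The "at least" folds set the mean of the bright group against a floor for each dim array, which is its dimmest probe above background or, if brighter, the reading itself. Members and lists were chosen with earlier results of these data known. The script was tested on simulated data. Deviations of same-numbered LPS+TGFβ1 and TGFβ1 arrays had a correlation of -0.136 for replicate number 7 and of 0.255 to 0.499 for all other numbers. The numbers were not taken as pairs in the main fit, although most of them shared deviations. Counts with the replicate number as block are given as an alternative. The number of arrays limits the precision. Alternatives were other offsets, filters, scalings, chip and replicate blocks, single chips, left-out chips and arrays, and array weights.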

Additional observations from a re-analysis of the deposited data

Results flagged for a closer look

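Among the genes named, 164 were checked for arrays far from the rest of their group, in 328 groups of 8 arrays, by the gap of the extreme array to its neighbour over the range of the group, against Dixon's critical value. Chance passes about 1 in 20 such groups, and 11 passed. ALOX5 was highest on TGFβ1 replicate 6, at 8245, with a ratio of 0.54. CCR7 was highest on TGFβ1 replicate 5, at 30.7, with a ratio of 0.628. CD74 was lowest on TGFβ1 replicate 6, at 1288, with a ratio of 0.599. ENG was highest on LPS+TGFβ1 replicate 1, at 1685, with a ratio of 0.642. ENG was lowest on TGFβ1 replicate 6, at 547, with a ratio of 0.626. LTC4S was lowest on TGFβ1 replicate 6, at 2265, with a ratio of 0.596. LYZ was lowest on TGFβ1 replicate 1, at 218, with a ratio of 0.542. NRGN was lowest on TGFβ1 replicate 6, at 1133, with a ratio of 0.527. SMAD7 was highest on LPS+TGFβ1 replicate 2, at 500.4, with a ratio of 0.579. TBXAS1 was lowest on TGFβ1 replicate 4, at 268, with a ratio of 0.62. TGFBR3 was highest on TGFβ1 replicate 6, at 213, with a ratio of 0.576. TGFβ1 replicate 6 gave 6 of the 11 values.

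The LPS effect with TGFβ1 differed from the LPS effect with PBS in 52 of the 164 genes, by the limma test of the difference itself at an adjusted p under 0.05. It was more positive with TGFβ1 in 16, with log2 differences for FCRLA (2.06), CDC42EP4 (1.75), CCL19 (1.67), NREP (1.64), GALNT12 (1.64), CADM1 (1.57), CAT (1.47), TGFBI (1.40), MYC (1.24), F13A1 (1.06), LTA4H (0.83), C1S (0.66), HIF1A (0.59), CSF3R (0.55), NFKBIZ (0.47), SMAD5 (0.38). It was more negative in 36. The larger of these were SRC (-3.07), CAMP (-2.56), MGLL (-2.53), VCAN (-2.45), C5AR1 (-2.34), SGK1 (-2.32), NCF1 (-2.29), CD14 (-2.26), IL1B (-2.22), IRAK2 (-2.11), AXL (-1.95), HMOX1 (-1.89), CYBB (-1.64), CD80 (-1.61), IGFBP3 (-1.35), IL6 (-1.28), NRGN (-1.19), CXCL8 (-1.18). The smaller were CD163 (-1.14), LY96 (-1.08), TRIB3 (-1.02), PLAUR (-1.01), CSF1R (-0.98), PPARG (-0.95), TLR8 (-0.94), ADM (-0.93), C3AR1 (-0.93), DEPTOR (-0.84), IL18BP (-0.83), ACKR2 (-0.79), TBXAS1 (-0.69), CDKN1A (-0.69), GPX1 (-0.60), VASH1 (-0.51), IL13RA1 (-0.46), CEBPA (-0.42). With 1 chip left out, 19 of these 52 calls ended, those of ADM, AXL, CCL19, CSF3R, GPX1, HIF1A, IGFBP3, IL13RA1, IL6, LTA4H, LY96, NCF1, NFKBIZ, NRGN, SMAD5, TBXAS1, TLR8, TRIB3 and VASH1.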

How the results depend on the processing

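The counts of probes higher and lower in LPS+TGFβ1 than in TGFβ1 (2746 and 3042) stayed within 1.5 times under every alternative run except the fits within chip 1 (474 and 209) and chip 4 (506 and 257), where 2 arrays a treatment remained. The at least 2-fold counts (650 and 253) were 416 and 153 within chip 1 and 398 and 123 within chip 4, and 386 were lower with an offset of 16. Leaving out 1 array gave 2606 to 2703 higher, 2821 to 2989 lower, 634 to 665 at least 2-fold higher and 237 to 273 lower.

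The counts of differences of LPS effects (518 positive, 821 negative) moved more. They were 219 and 432 without chip 1, 195 and 364 without chip 3, 298 and 536 without chip 4, 774 and 594 with median scaling, which turns which direction is more frequent, 696 and 861 with quantile scaling, 1372 and 1553 with array weights, and 1506 and 1753 without the arrays that stand apart, an alternative chosen after seeing the data. Positive differences were 827 with chip as fixed block, 830 as random block and 316 within chip 2. Within chips 1 and 4 limma called 0 in either direction, with 303 positive and 563 negative (chip 1) and 488 and 444 (chip 4) at an unadjusted p under 0.05. Leaving out 1 array gave 426 to 560 positive and 704 to 859 negative. With the replicate number as block, which the main fit did not use, 984 were positive and 1358 negative, against 3360 higher and 3722 lower for LPS+TGFβ1 against TGFβ1. The cause of these moves was not tested.

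CYCS (0.055) and TRIB3 (0.18) turned positive within chip 2. Leaving out 1 array ended 10 of 164 gene changes and 2 of 52 differences (CSF3R and HIF1A). Leaving out 1 chip ended 23 changes and 19 differences. Readings below background limit folds to bounds, and differences of LPS effects that use them are fitted values; 2152 genes were below it on all 16 arrays.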
